A study of Mus musculus with 4 samples.

Results

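Cytochrome P450 genes were described in RNA-seq libraries of cells sorted from the mouse main olfactory epithelium (MOE). The genes were taken by symbol, as *Cyp* followed by a family number, a subfamily letter and a gene number. This gave 93 of the 24421 genes with deposited values. Another 12 *Cyp* symbols, among them *Cyp51*, pseudogenes and symbols that end in a further letter such as *Cyp4a12a*, were outside this form and were not included. P450 enzymes are haem proteins of the endoplasmic reticulum and mitochondria that insert an oxygen atom into their substrates. Families 1 to 3 act mostly on foreign compounds, family 4 on fatty acids, and the remaining families on sterols, bile acids, steroid hormones, retinoids, and vitamin D. The olfactory mucosa is known as a tissue rich in P450 enzymes of the first kind. There they are made mainly by sustentacular cells, the supporting cells that surround the olfactory sensory neurons (OSNs), and by Bowman glands, and they act on inhaled odorants and toxicants.

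The study had 4 libraries, 1 for each group. GFP-positive and GFP-negative cells came from C57BL/6 mice that carry a PiggyBac transgene with TAAR enhancer 1 before a minimal Hsp68 promoter and GFP. The tdTomato-positive and tdTomato-negative cells came from C57BL/6 mice in which TAAR enhancer 2 and the same promoter drive tdTomato. Each line descends from 1 founder, and animals of a genotype were pooled for sorting. The labels give the strain as C57BL/6, the methods name C57BL/6J eggs, and the reporting summary states a background mixed with a further inbred strain for the study's mouse lines. The sample labels describe adult mice, while the study's reporting summary gives younger postnatal animals. The comparisons ask how reporter-positive and reporter-negative cells of each line differ in P450 transcripts. Values are in TPM, a unit of relative transcript abundance, which is adjusted for transcript length and adds up to the same total in every library, so that a gene taking a large share of a library lowers all others. With 1 library per group there is no replicate check and no p-value, and the read depth behind each value is unknown. A gene is called higher or lower here if it differs at least 2-fold on the log2(TPM + 1) scale and has at least 1 TPM in either library of the line. This scale understates changes of genes with low TPM. In sorted pools, fewer cells of a type and less RNA per cell cannot be told apart.

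The libraries differed widely in their make-up, and these values stand beside every P450 result. The 10 highest genes took 31.5% of TPM in GFP-positive cells and between 5.72% and 9.44% in the other libraries. Across genes at or above 1 TPM in both libraries of a line, the median log2 ratio of positive over negative cells was -0.89 in the GFP line and -0.18 in the tdTomato line. The 15 *Taar* genes summed to 86.1 and 804.1 TPM in GFP-negative and GFP-positive cells, and to 60.8 and 3476 TPM in tdTomato-negative and tdTomato-positive cells. The 12 mature OSN markers summed to 33760.3 and 3555 TPM in GFP-negative and GFP-positive cells, and to 33472 and 17594 TPM in tdTomato-negative and tdTomato-positive cells.

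P450 transcripts were more abundant in reporter-positive cells of both lines. Summed over the 93 genes they came to 1142 TPM for GFP-negative against 9360.1 TPM for GFP-positive cells, which is 8.20-fold higher (log2 ratio 3.04). In the tdTomato line they came to 1872 TPM for negative against 8173 TPM for positive cells, 4.37-fold higher (log2 ratio 2.13). *Cyp2a5* and *Cyp2f2*, enzymes of family 2 that act on small foreign compounds, made up most of this total in positive cells. Without them, the sum of the other 91 genes was 2.85-fold higher in GFP-positive and 2.28-fold higher in tdTomato-positive cells. The latter rested largely on *Cyp4b1*: without it as well, an alternative chosen after seeing the data, the sum of the other 90 genes was 2.66-fold higher in GFP-positive and 1.22-fold higher in tdTomato-positive cells. The separate genes did not all follow the total. *Cyp2g1* and *Cyp1a2*, the P450 markers of sustentacular cells, were higher in GFP-positive and lower in tdTomato-positive cells.

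Many P450 genes had little or no signal. Of the 93, 37 were listed at 0 in all 4 libraries, 13 were above 0 but under 1 TPM in every library, 22 had a highest value between 1 and 10 TPM, and 21 reached at least 10 TPM in any library. Those at 0 throughout included *Cyp7a1*, which starts bile acid synthesis from cholesterol, and *Cyp17a1* and *Cyp19a1*, which make androgens and oestrogens. The *Cyp2c* and *Cyp2d* genes, large groups with known roles in liver, were near 0, with 2 of the 15 *Cyp2c* genes above 0 and a maximum of 3.81 TPM, and 4 of the 9 *Cyp2d* genes above 0 with a maximum of 4.86 TPM. *Cyp2e1*, the ethanol-oxidizing enzyme, did not exceed 0.0408 TPM. The *Cyp2a*, *Cyp2f*, *Cyp2g*, *Cyp4b*, *Cyp2s*, *Cyp2b*, and *Cyp1a* subfamilies each had a gene of at least 100 TPM.

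**Figure D1:**
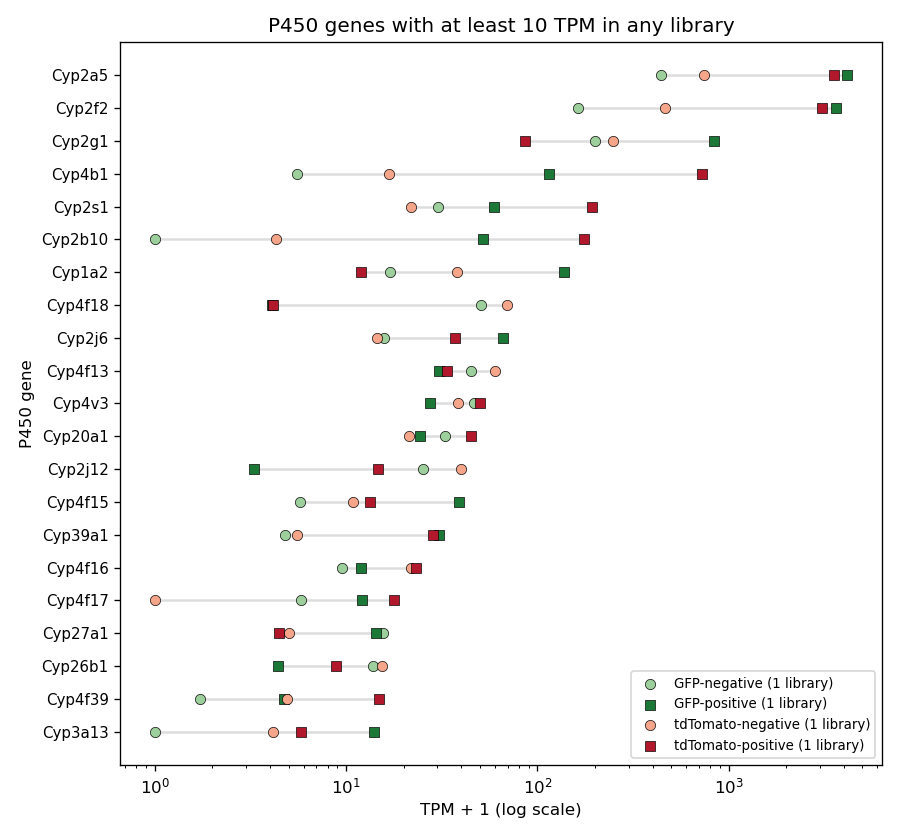
TPM + 1 on a log scale for the 21 P450 genes that reached 10 TPM, with 1 point for each of the 4 libraries and a grey line over their range. *Cyp2a5* and *Cyp2f2* lie far above the others in both positive libraries, while *Cyp2g1* and *Cyp1a2* have their highest value in GFP-positive and their lowest in tdTomato-positive cells.

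The promoters of 4 genes are shown because they mark the contrasting patterns: *Cyp2a5*, *Cyp2f2*, and *Cyp2b10* were higher in positive cells of both lines, and *Cyp1a2* in those of the GFP line alone. Each sequence is from RefSeq on GRCm38.p6, read 5′ to 3′ on the strand of the gene, and runs from before the annotated start to shortly after it. Capitals mark GCGTG, the core bound by the aryl hydrocarbon receptor, TTGGC, the core bound by nuclear factor I proteins, and TATAAA, the TATA box, each on either strand.
Cyp2a5, chr7:26835089-26835388, plus strand: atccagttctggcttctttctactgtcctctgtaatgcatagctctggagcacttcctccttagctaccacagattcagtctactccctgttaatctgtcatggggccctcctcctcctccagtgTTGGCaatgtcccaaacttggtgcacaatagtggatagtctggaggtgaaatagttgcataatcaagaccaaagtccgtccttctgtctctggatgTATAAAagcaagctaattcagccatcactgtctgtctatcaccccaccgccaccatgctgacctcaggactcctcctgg
Cyp2f2, chr7:27119705-27120004, plus strand: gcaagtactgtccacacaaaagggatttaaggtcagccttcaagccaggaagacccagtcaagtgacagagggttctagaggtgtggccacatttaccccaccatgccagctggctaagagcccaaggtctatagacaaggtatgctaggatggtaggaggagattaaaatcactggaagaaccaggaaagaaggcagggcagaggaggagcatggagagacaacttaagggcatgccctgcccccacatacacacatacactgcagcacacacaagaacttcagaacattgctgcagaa
Cyp2b10, chr7:25897408-25897707, plus strand: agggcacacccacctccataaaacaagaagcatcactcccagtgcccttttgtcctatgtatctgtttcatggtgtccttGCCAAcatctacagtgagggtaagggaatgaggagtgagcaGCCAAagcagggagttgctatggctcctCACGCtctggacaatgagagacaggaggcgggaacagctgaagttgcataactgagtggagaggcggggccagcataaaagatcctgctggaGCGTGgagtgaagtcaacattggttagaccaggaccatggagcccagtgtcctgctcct
Cyp1a2, chr9:57683606-57683905, minus strand: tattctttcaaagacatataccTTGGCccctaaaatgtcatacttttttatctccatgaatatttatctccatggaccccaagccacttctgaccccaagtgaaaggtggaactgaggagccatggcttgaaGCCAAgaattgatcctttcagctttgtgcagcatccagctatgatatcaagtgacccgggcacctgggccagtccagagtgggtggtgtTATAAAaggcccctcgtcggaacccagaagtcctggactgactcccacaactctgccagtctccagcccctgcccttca

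The *Cyp1a2* window held 2 TTGGC matches and 1 TATAAA match, the *Cyp2a5* window 1 of each, and the *Cyp2b10* window 2 TTGGC and 2 GCGTG matches, while the *Cyp2f2* window held none of the 3 motifs. RefSeq promoters were matched for 72 of the 93 genes, with 82 windows. TTGGC was in 61.0% of these windows and in 46.7% of the 32851 windows of all genes. TATAAA was in 39% of P450 windows and 13.6% of all windows, and GCGTG in 19.5% and 32.4%. Among the 18 genes with at least 10 TPM that had a window, TTGGC was in 12, GCGTG in 6, and TATAAA in 3. These matches describe the sequence and do not show binding.

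In the GFP line, 38 P450 genes had at least 1 TPM in either library. Of these, 19 were called higher in GFP-positive cells, 6 lower, and 13 neither. Among all 16173 genes with at least 1 TPM in either library, 14.2% were called higher and 45.0% lower. The median log2 fold change of the 38 genes was 1.00, beside -0.88 for all genes tested, and over all 93 genes it was 0 because most were at or near 0. With the libraries scaled by median ratios, which moved all genes by 0.88, 24 P450 genes were higher and 2 lower, so that the percent of called genes that were higher went from 76 to 92.3. Of all genes, 22.4% were then higher and 21.5% lower. With scaling to the 12 mature OSN markers, which moved all genes by 3.14, 38 were higher and 0 lower, beside 79.3% and 7.32% of all genes.

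Family 2, the largest with 47 genes counted here, held most of the transcripts, at 884.6 TPM in GFP-negative, 8876 TPM in GFP-positive, 1559 TPM in tdTomato-negative, and 7183 in tdTomato-positive cells. *Cyp2r1*, a vitamin D 25-hydroxylase with at most 2.09 TPM, was counted with the retinoid and vitamin D genes instead. Of the family 2 genes with at least 1 TPM, 9 of 16 were higher and 2 lower in the GFP line, and 6 of 14 higher and 6 lower in the tdTomato line. The shares of all genes were 14.2% higher and 45.0% lower in the GFP line and 17.2% higher and 23.2% lower in the tdTomato line. Family 4 (17 genes) had 4 of 9 higher and 1 lower in the GFP line, and 4 of 10 higher and 2 lower in the tdTomato line. The sterol and bile acid genes had 2 of 4 higher in both lines and 1 lower in the GFP line, *Cyp46a1*, the cholesterol 24-hydroxylase of neurons, at 6.92 and 2.55 TPM (-1.16). This call was lost with median-ratio scaling (-0.46) and turned direction with scaling to the mature OSN markers (1.46), both chosen for this gene after seeing the data.

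*Cyp2a5*, which hydroxylates coumarin and other small molecules, was at 442.4 TPM in GFP-negative, 4175 TPM in GFP-positive, 745.2 TPM in tdTomato-negative, and 3572 in tdTomato-positive cells. The difference was 9.44-fold in the GFP line and 4.79-fold in the tdTomato line (log2 fold changes 3.24 and 2.26). It was the 8th highest of all genes in tdTomato-positive cells and the 23rd highest in GFP-positive cells. *Cyp2f2*, known for activating naphthalene and other inhaled aromatic compounds, was at 161.6, 3653, 466.5, and 3094 TPM in the same order of libraries. Its differences were 22.6-fold and 6.63-fold (log2 fold changes 4.49 and 2.73). Both negative libraries held clear levels of both genes, and both positive libraries were well above them. As a share of *Cyp2a5*, *Cyp2f2* was 36.5% in GFP-negative and 62.6% in tdTomato-negative cells, but 87.5% and 86.6% in GFP-positive and tdTomato-positive cells. Such ratios within a library do not depend on how libraries are scaled.

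*Cyp2g1*, a P450 known for its near restriction to the olfactory mucosa, was at 199.6 and 838.1 TPM in GFP-negative and GFP-positive cells, which was 4.20-fold higher (log2 fold change 2.06). In the tdTomato line it was at 248.2 TPM in negative and 84.9 TPM in positive cells, 2.92-fold lower (log2 fold change -1.54). *Cyp1a2*, which oxidizes aromatic amines and caffeine, followed the same pattern. Its TPM were 16.0 in GFP-negative, 136.9 in GFP-positive, 36.9 in tdTomato-negative, and 10.9 in tdTomato-positive cells. These were 8.53-fold higher in GFP-positive and 3.38-fold lower in tdTomato-positive cells (log2 fold changes 3.02 and -1.67). The ratio of *Cyp2g1* to *Cyp2a5* was 45.1% in GFP-negative, 20.1% in GFP-positive, 33.3% in tdTomato-negative, and 2.38% in tdTomato-positive cells. That of *Cyp1a2* to *Cyp2a5* was 3.62%, 3.28%, 4.95%, and 0.305%. Relative to *Cyp2a5*, both genes were thus lowest in tdTomato-positive cells, with *Cyp2g1* at 778.8% of *Cyp1a2* there and at 612.4% in GFP-positive cells.

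Among the 30 P450 genes with at least 1 TPM in either library of each line, 10 were called higher in positive cells of both lines, beside 8.42% of all 15033 such genes. Another 2 were lower in both, beside 15.4% of all genes, and 3 were higher in the GFP line and lower in the tdTomato line, beside 1.50%. None was lower in the GFP line and higher in the tdTomato line, a pattern of 1.76% of all genes. The 10 genes higher in both were *Cyp2a5*, *Cyp2f2*, *Cyp2b10*, *Cyp2j6*, *Cyp2w1*, *Cyp4b1*, *Cyp4f17*, *Cyp4f39*, *Cyp39a1*, and *Cyp7b1*. Of these, *Cyp2w1* and *Cyp7b1*, an oxysterol hydroxylase, did not reach 10 TPM and are named here after their values were seen. *Cyp2w1* was listed at 0 in both negative libraries and was at 7.46 TPM in GFP-positive and 8.17 TPM in tdTomato-positive cells, and *Cyp7b1* was at 0.0163, 6.41, 1.52, and 5.27 TPM in GFP-negative, GFP-positive, tdTomato-negative, and tdTomato-positive cells. The 2 lower in both were *Cyp4f18* and *Cyp2j12*. With scaling to the mature OSN markers neither was called lower in both, with *Cyp4f18* at -0.82 and -3.08 and *Cyp2j12* at -0.25 and -0.49 in the GFP and tdTomato lines. The 3 genes with opposite calls were *Cyp2g1*, *Cyp1a2*, and *Cyp2j9*. *Cyp2j9*, named here after its values were seen because it did not reach 10 TPM, was at 2.91 and 9.91 TPM in GFP-negative and GFP-positive cells, and at 5.21 and 0.0304 TPM in tdTomato-negative and tdTomato-positive cells. With scaling to the mature OSN markers, *Cyp2g1* and *Cyp1a2* were still lower in tdTomato-positive cells but under 2-fold, at -0.57 and -0.73. The difference between the lines was not tested, since each group has 1 library and the enhancer, the reporter, and the line change together.

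**Figure D2:**
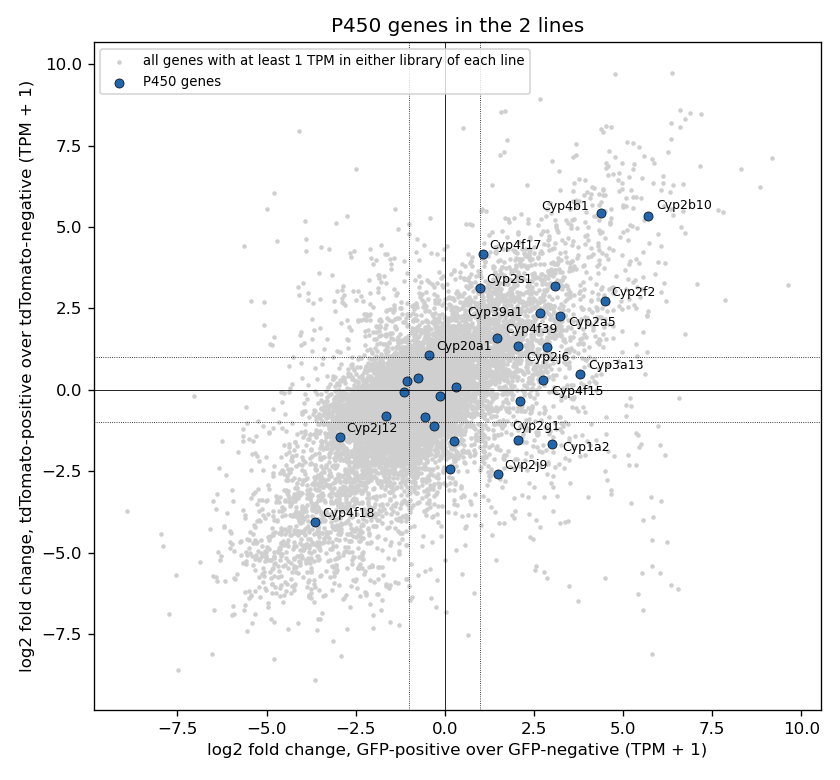
Log2 fold change of TPM + 1 between positive and negative cells in the GFP line (horizontal) and in the tdTomato line (vertical) for P450 genes (blue) and all genes (grey) with at least 1 TPM in either library of each line, with dotted lines at a 2-fold difference. Among P450 genes, 10 are at least 2-fold higher in both lines, and *Cyp2g1*, *Cyp1a2*, and *Cyp2j9* lie at the lower right. Plotted positions against a library at 0 (such as *Cyp2b10* and *Cyp3a13* in the GFP line, *Cyp4f17* in the tdTomato line, and *Cyp2w1* in both) depend on the pseudocount.

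In the tdTomato line, 35 P450 genes had at least 1 TPM in either library. Of these, 15 were called higher in tdTomato-positive cells, 10 lower, and 10 neither, beside 17.2% higher and 23.2% lower among all 15777 genes. Their median log2 fold change was 0.29, beside -0.23 for all genes tested and 0 for all 93 P450 genes. After scaling to the mature OSN markers, 18 were higher and 4 lower, beside 36.7% and 13.1% of all genes, and the percent of called genes that were higher went from 60 to 81.8.

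Several P450 genes of foreign-compound and fatty acid metabolism were far higher in tdTomato-positive cells. *Cyp4b1*, a family 4 enzyme known from airway epithelium that oxidizes fatty acids and aromatic compounds, was at 4.52 TPM in GFP-negative, 114.3 TPM in GFP-positive, 15.8 TPM in tdTomato-negative, and 722 in tdTomato-positive cells. This was 25.3-fold higher in GFP-positive and 45.7-fold higher in tdTomato-positive cells (log2 fold changes 4.38 and 5.43). Its ratio to *Cyp2a5* was 2.74% in GFP-positive and 20.2% in tdTomato-positive cells. *Cyp2b10*, the inducible target of the receptor CAR (*Nr1i3*) in liver, was listed at 0 in GFP-negative cells and was at 50.7 TPM in GFP-positive, 3.32 TPM in tdTomato-negative, and 174.7 in tdTomato-positive cells. It was 52.7-fold higher in the tdTomato line. *Cyp2s1*, an epithelial P450, was at 29.3, 58.6, 21, and 190.9 TPM in the same order, which was 2.00-fold higher on the TPM scale and just under the call in the GFP line (log2 fold change 0.98), and 9.10-fold higher in the tdTomato line (log2 fold change 3.13). In the GFP line *Cyp2s1* was past 2-fold with median-ratio scaling (1.84), rescaling without the highest genes (1.48), and scaling to the mature OSN markers (4.05). These 3 genes were higher in tdTomato-positive than in GFP-positive cells by 2.65 (*Cyp4b1*), 1.77 (*Cyp2b10*), and 1.69 (*Cyp2s1*) on the log2(TPM + 1) scale. With scaling to the mature OSN markers, an alternative chosen for this comparison after seeing the data, the differences were 0.35, -0.52, and -0.60, so that none was past 2-fold and those of *Cyp2b10* and *Cyp2s1* changed direction. With median-ratio scaling they were between 0.93 (*Cyp2s1*) and 1.88 (*Cyp4b1*).

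**Figure D3:**
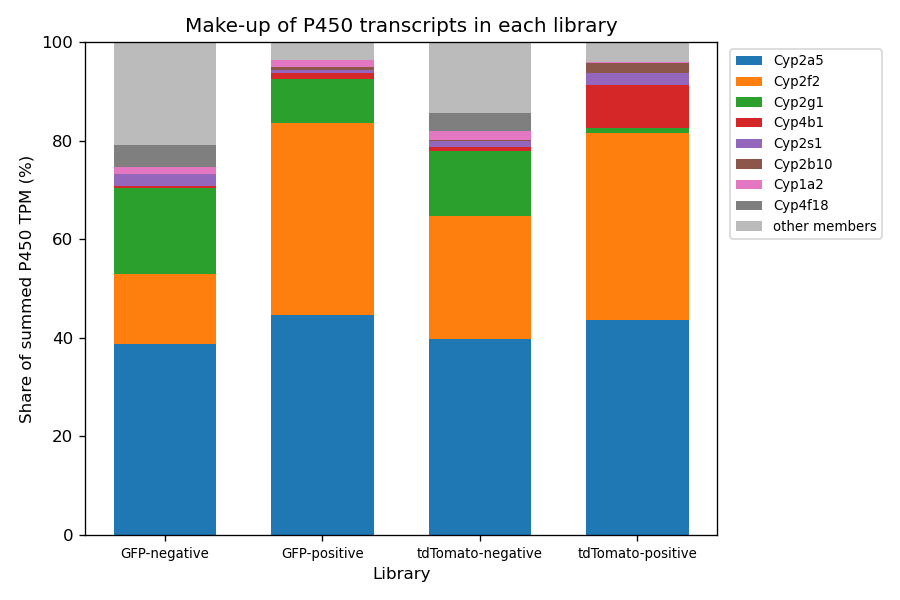
Share of each gene in the summed TPM of the 93 P450 genes in each library, in percent, with all other genes in light grey. *Cyp2a5* makes up between 38.7% and 44.6% in the 4 libraries, *Cyp2g1* is 13.3% in tdTomato-negative and 1.04% in tdTomato-positive cells, and *Cyp4b1* reaches 8.83% in the latter.

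*Cyp2a5* took the highest share of P450 transcripts in every library. It held 38.7% of summed P450 TPM in GFP-negative, 44.6% in GFP-positive, 39.8% in tdTomato-negative, and 43.7% in tdTomato-positive cells. *Cyp2f2* held 14.2%, 39%, 24.9%, and 37.9%, and in GFP-negative cells it was below *Cyp2g1*, which held 17.5%. Across the 21 genes with at least 10 TPM, the Spearman rho of TPM was 0.90 between the negative libraries and 0.71 between the positive ones, and between 0.31 and 0.37 for the other pairs. These values are across genes, which are not independent replicates.

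The genes of *Cyp2* subfamilies a, b, f, g, s, and t lie together on chromosome 7 (GRCm38) between 25802475 and 27158668, a span of 1356194 bases in the GENCODE M21 annotation. Of the 13 members there, 5 reached 10 TPM and 4 were listed at 0 in all libraries. Neighbours did not always share a pattern. *Cyp2g1* (26808892 to 26821205, plus strand) ends 14099 bases before *Cyp2a5* (26835305 to 26843548, plus strand), its nearest P450 neighbour, but in tdTomato-positive cells *Cyp2g1* was lower and *Cyp2a5* higher. *Cyp2a22* and *Cyp2a12*, which follow *Cyp2a5*, were listed at 0 and at most 0.748 TPM, and *Cyp2f2* (27119909 to 27133660, plus strand) comes after them. *Cyp2s1* (25802475 to 25816913, minus strand) and *Cyp2b10* (25897620 to 25926624, plus strand) lie at the other end.

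**Figure D4:**
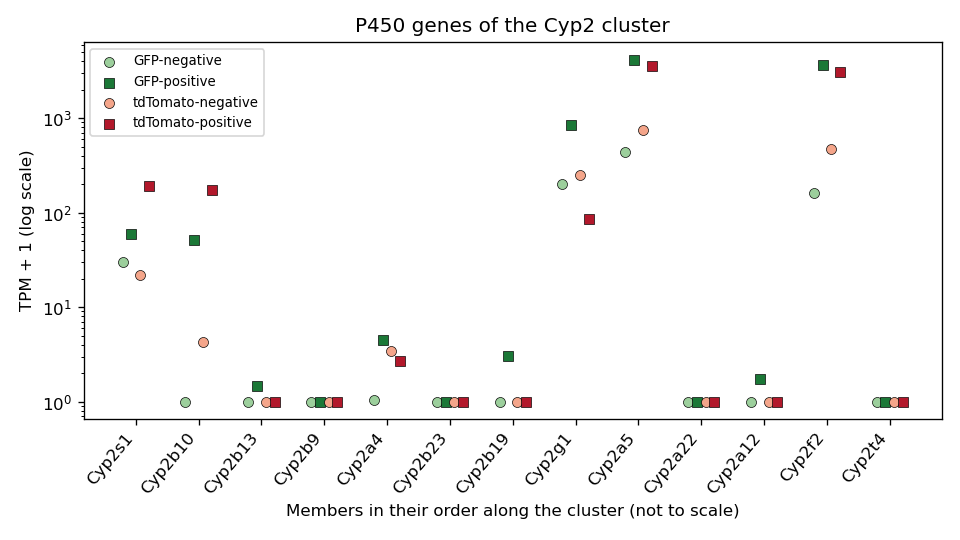
TPM + 1 on a log scale in the 4 libraries for the 13 P450 genes of the *Cyp2* cluster, placed in their order along the chromosome and not to scale. The neighbours *Cyp2g1* and *Cyp2a5* differ in tdTomato-positive cells, at 84.9 and 3572 TPM, and *Cyp2b9*, *Cyp2b23*, *Cyp2a22*, and *Cyp2t4* are at 0 throughout.

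Part of the values depends on how reads from near-identical genes were assigned. Of the 50-base windows of *Cyp2a5* transcripts, 37.0% also occur in another gene, 28.1% in *Cyp2a4*. *Cyp2a4* itself, a steroid hydroxylase, had at most 3.52 TPM. The shared part was 5.11% for *Cyp2g1*, 4.79% for *Cyp1a2*, 8.26% for *Cyp4b1*, and 8.70% for *Cyp2b10*, while *Cyp2f2* and *Cyp2s1* shared none. *Cyp1a1*, which lies 4224 bases from *Cyp1a2* on chromosome 9 and is a known target of the aryl hydrocarbon receptor, was at 0.0889 TPM in GFP-negative, 9.98 TPM in GFP-positive, and 0.0246 TPM in tdTomato-negative cells, and was listed at 0 in tdTomato-positive cells.

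Family 4 genes other than *Cyp4b1* were split. *Cyp4f18*, which inactivates leukotriene B4 in neutrophils, was at 49.5 and 3.09 TPM in GFP-negative and GFP-positive cells, 16.1-fold lower, and at 68.7 and 3.16 TPM in the matching tdTomato libraries, 21.8-fold lower. It was the P450 gene with the lowest log2 fold change in both lines, at -3.63 and -4.07. *Cyp4f15* was 7.99-fold higher in GFP-positive cells (4.76 and 38.1 TPM) and differed by 1.25-fold in the tdTomato line (9.85 and 12.3 TPM). *Cyp4f39*, which makes ultra-long-chain fatty acids of the skin barrier, was higher in both lines, at 0.717 and 3.71 TPM in the GFP line and 3.92 and 13.9 TPM in the tdTomato line. *Cyp4f17* was at 4.81 and 11.1 TPM in the GFP line and was listed at 0 in negative and at 16.9 TPM in positive cells of the tdTomato line. *Cyp4f13*, *Cyp4f16*, and *Cyp4v3*, a fatty acid hydroxylase, were between 8.50 and 59.3 TPM and under a 2-fold difference in both lines on the deposited scale. With median-ratio scaling *Cyp4f16* was past 2-fold in the GFP line (1.14). With scaling to the mature OSN markers the 3 genes were at 2.52, 3.23, and 2.30 in the GFP line, and *Cyp4v3* was at 1.31 in the tdTomato line. *Cyp4f18* is on chromosome 8, apart from the 8 *Cyp4f* members on chromosome 17.

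The *Cyp2j* genes, whose products make epoxides of arachidonic acid, also differed among themselves. *Cyp2j6* was higher in positive cells, with 14.8 and 64.9 TPM in the GFP line (log2 fold change 2.06) and 13.6 and 36 TPM in the tdTomato line (1.34). *Cyp2j12* was lower, with 24.2 and 2.28 TPM in the GFP line (-2.94) and 38.7 and 13.7 TPM in the tdTomato line (-1.43). Relative to *Omp*, the olfactory marker protein of mature OSNs, *Cyp2j12* was between 0.206% and 0.382% in all 4 libraries, while *Cyp4f18* was 0.517% and 0.68% in GFP-negative and tdTomato-negative cells and 0.279% and 0.0714% in GFP-positive and tdTomato-positive cells.

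P450 genes of sterol, retinoid, and steroid metabolism had low values. *Cyp39a1*, which acts on 24-hydroxycholesterol, was 7.82-fold higher in GFP-positive cells (3.81 and 29.8 TPM) and 6.11-fold higher in tdTomato-positive cells (4.52 and 27.6 TPM). *Cyp27a1*, the mitochondrial sterol 27-hydroxylase, was at 14.7 and 13.3 TPM in the GFP line and at 4.06 and 3.44 TPM in the tdTomato line, with a larger difference between the lines than between positive and negative cells. *Cyp26b1*, which degrades retinoic acid, was 3.74-fold lower in GFP-positive cells (12.8 and 3.42 TPM) and at 14.5 and 7.91 TPM in the tdTomato line, a log2 fold change of -0.80. In the GFP line *Cyp26b1* was under 2-fold with median-ratio scaling (-0.90) and higher in GFP-positive cells with scaling to the mature OSN markers (1.12). *Cyp20a1*, an enzyme without a known substrate, was at 32.0 and 23.3 TPM in the GFP line and at 20.2 and 43.7 TPM in the tdTomato line. *Cyp3a13*, the 1 family 3 gene to reach 10 TPM, was listed at 0 in negative and at 12.9 TPM in positive cells of the GFP line, and at 3.15 and 4.84 TPM in the tdTomato line. The 6 steroid hormone genes did not exceed 1.35 TPM. In the GFP line, the directions of *Cyp4f13*, *Cyp4v3*, *Cyp20a1*, and *Cyp27a1* changed when libraries were scaled by median ratios, and none of these 4 was past 2-fold in that line on the deposited scale.

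The partners of P450 enzymes were examined from lists. Their counts stand beside the same shares of all genes, 14.2% higher and 45.0% lower in the GFP line and 17.2% higher and 23.2% lower in the tdTomato line. Among the electron donor, haem, and receptor genes, 11 of the 12 called lower in the GFP line changed direction when libraries were scaled to the mature OSN markers, with *Fdx1l* as the exception, and none of these 12 did under the other scalings. Of the 12, however, 1 was still at least 2-fold lower with median-ratio scaling, 5 with rescaling without the highest genes, and 0 with scaling to the mature OSN markers. *Por*, the reductase that passes electrons from NADPH to P450 enzymes of the endoplasmic reticulum, was at 150.0 and 433.5 TPM in GFP-negative and GFP-positive cells and at 187.1 and 515.6 TPM in tdTomato-negative and tdTomato-positive cells (log2 fold changes 1.52 and 1.46). *Pgrmc1*, a haem-binding P450 partner, was higher by 1.43 and 1.84. Of the 9 electron donor genes with a value, 3 were called higher and 3 lower in the GFP line. In the tdTomato line 3 of 8 were higher and 0 lower. The others called in a line were *Cyb5r3* (1.02 and 0.57), *Cyb5r1* (-1.63 and -0.85), *Fdxr*, the mitochondrial reductase (-1.16 and 1.31), and *Fdx1l*, which was at 1.18 TPM in GFP-negative cells and listed at 0 elsewhere.

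*Alas1*, the rate-limiting enzyme of haem synthesis outside the red cell lineage, was at 21.7 and 120.7 TPM in the GFP line and 48.7 and 137.5 TPM in the tdTomato line (log2 fold changes 2.42 and 1.48). Later enzymes did not follow it as a group, with 2 of the 8 haem synthesis genes higher and 3 lower in the GFP line, and 2 higher and 0 lower in the tdTomato line. Others called in a line were *Alad* (1.06 and 0.65), *Uros* (-1.74 and 0.0039), *Ppox* (-1.49 and -0.28), and *Fech* (-0.22 and 1.21). Of the 4 haem degradation genes, 3 were lower in the GFP line and 1 in the tdTomato line. *Hmox1*, the stress-inducible haem oxygenase, was at 55.1 and 19.6 TPM in the GFP line and at 241.3 and 19.9 TPM in the tdTomato line (-1.44 and -3.53). *Hmox2* (-1.12 and -0.61) and *Blvra* (-1.48 and 0.71) were the other 2.

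Receptors that control P450 genes had low values. *Nr1i2*, the pregnane X receptor, was listed at 0 in both negative libraries and was at 5.37 TPM in GFP-positive and 4.12 TPM in tdTomato-positive cells, while *Nr1i3* was listed at 0 in all 4 libraries. *Ahr*, the aryl hydrocarbon receptor, was at 19.1 and 8.06 TPM in the GFP line and 16.9 and 9.99 TPM in the tdTomato line (-1.15 and -0.70). *Ppara*, which controls *Cyp4a* genes of family 4 in liver, was at 0.752 and 2.79 TPM in the GFP line and at 0.0273 and 14.5 TPM in the tdTomato line. The 5 *Cyp4a* genes counted here did not exceed 0.459 TPM. Of the 10 receptor genes, 7 had at least 1 TPM in either library of each line, with 2 higher in each line, 3 lower in the GFP line, and 1 lower in the tdTomato line. *Rxrb*, a partner of several of these receptors, was lower in the GFP line (-1.48 and -0.42). Of the epoxide hydrolases, which act on epoxides made by P450 enzymes, 2 of 3 were higher in each line, and 1 was lower in the GFP line, for which no other scaling was computed.

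Markers of other cell types also differed between positive and negative cells, some lists in the direction of the P450 sum and others against it. Their part in the results was not tested. Their counts stand beside 14.2% of all genes higher and 45.0% lower in the GFP line, and 17.2% higher and 23.2% lower in the tdTomato line. The 9 sustentacular cell markers that are not P450 genes summed to 476.9, 3167, 848.3, and 1958 TPM in GFP-negative, GFP-positive, tdTomato-negative, and tdTomato-positive cells, and 8 of 9 were called higher in the GFP line and 6 of 9 in the tdTomato line. Relative to this sum, *Cyp2g1* was 41.8%, 26.5%, 29.3%, and 4.34%, and *Cyp2a5* was 92.8%, 131.8%, 87.8%, and 182.4%. In the tdTomato line the 6 sustentacular cell markers called higher were *Sox2* (3.04), *Krt8* (2.26), *Hes1* (1.88), *Krt18* (1.25), *Ugt2a1* (1.13), and *Ugt2a2* (1.08). The other 3, *Ermn* (0.55), *Sult1c1* (0.06), and *Notch2* (0.04), were under 2-fold in that line. The defining P450 markers *Cyp2g1* and *Cyp1a2* were above 0 in every library. The 10 Bowman gland markers summed to 2175, 88707, 2697, and 2122 TPM, with 10 of 10 higher in the GFP line and 5 higher and 5 lower in the tdTomato line. Without *Bpifb3*, an alternative chosen after seeing the data, the log2 ratio of this sum in the tdTomato line went from -0.35 to 2.55. The 10 multiciliated cell markers summed to 582.6, 2846, 579.0, and 9344 TPM, with 9 of 10 and 10 of 10 higher.

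The 5 horizontal basal cell markers summed to 63.0, 629.2, 151.6, and 29.1 TPM in the same order, with 4 of 5 higher in the GFP line and 5 of 5 lower in the tdTomato line, the directions of *Cyp2g1* and *Cyp1a2*. The 5 respiratory secretory cell markers summed to 1101, 63470.4, 7670, and 60649 TPM, with *Scgb1a1*, which defines club cells, listed at 0 in all libraries, and 4 of 4 and 3 of 4 detected genes higher. The 5 macrophage markers summed to 746.3, 59.4, 186.3, and 68.5 TPM, and were lower in 5 of 5 and 3 of 4. The 6 microvillar cell and ionocyte markers summed to 48.9, 243.9, 255.4, and 236.4 TPM, but these genes did not share a direction. In the GFP line *Ascl3*, *Cftr*, and *Foxi1* were higher (3.05, 3.41, and 2.05), *Pou2f3* was lower (-1.66), and *Trpm5* was neither (-0.11). In the tdTomato line *Trpm5*, *Chat*, and *Pou2f3* were lower (-4.49, -1.90, and -1.44) and the others were neither. Sums were 138.4, 53.3, 119.5, and 20.5 TPM for the 6 globose basal cell and precursor markers, 2784, 747.2, 2052, and 1122 TPM for the 5 immature OSN markers, and 43.8, 21.8, 17.1, and 57.8 TPM for the 6 olfactory ensheathing cell markers. Each of the 12 mature OSN markers was called lower in GFP-positive cells, and 6 of 12 were in tdTomato-positive cells.

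**Figure D5:**
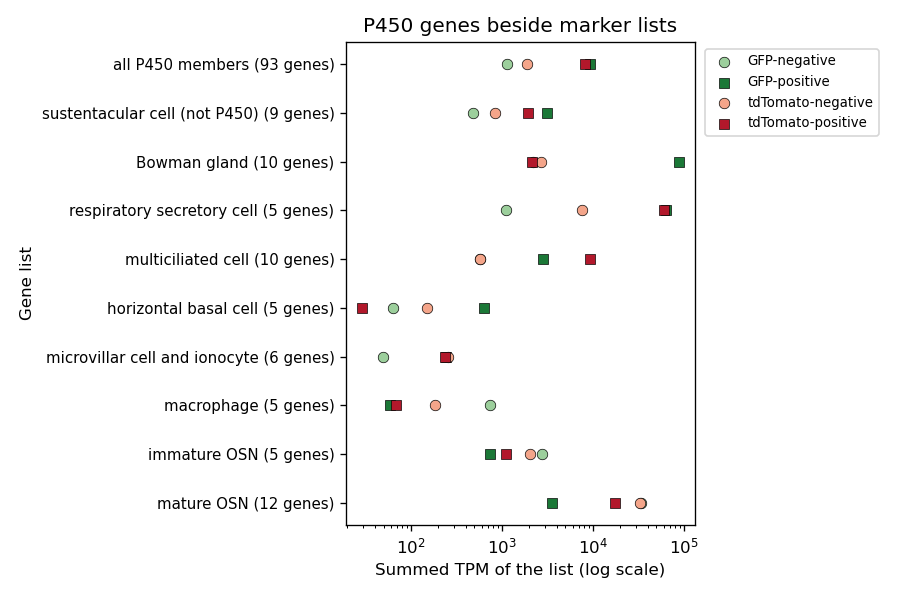
Summed TPM of the 93 P450 genes and of 9 marker lists in the 4 libraries, on a log scale. P450 genes and sustentacular cell markers are highest in both positive libraries, while horizontal basal cell markers are highest in GFP-positive (629.2 TPM) and lowest in tdTomato-positive cells (29.1 TPM).

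The negative libraries of the lines also differed. Summed P450 TPM was higher in tdTomato-negative than in GFP-negative cells by a log2 ratio of 0.71. Of the 35 P450 genes with at least 1 TPM in either, 13 were at least 2-fold higher and 5 lower in tdTomato-negative cells, beside 11.4% and 12.4% of all 15899 genes. *Cyp2f2* was higher there by 1.52 on the log2(TPM + 1) scale, *Cyp4b1* by 1.61, and *Cyp1a2* by 1.15, while *Cyp2a5* (0.75) and *Cyp2g1* (0.31) were under 2-fold. *Cyp27a1* was lower by a log2 value of -1.63. The macrophage markers were lower in the same library in 5 of 5 genes, while the microvillar cell and ionocyte markers were higher in 5 of 6 and the respiratory secretory cell markers in 4 of 4 detected genes, with a log2 ratio of sums of 2.80.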

How the data were processed

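The data are RNA-seq libraries of FACS-sorted MOE cells, 1 for each of 4 groups named by the sample titles. The authors deposited TPM for 24421 genes. The submitters' processing notes name Trimmomatic 0.36, Salmon 1.4.0, and mm10, whereas the paper's methods name Hisat2 and Cufflinks. The labels name Vazyme kits, whereas the methods name Smart-seq2. The gene annotation is not given in the sources used here. Depth is unknown, so no intervals were calculated.

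Fold changes used log2(TPM + 1). With 1 library per group no test was made, and calls are differences of at least 2-fold among genes with at least 1 TPM in either library. Genes named are those with at least 10 TPM in any library, *Cyp2g1* and *Cyp1a2*, and partner genes called in a line; others are named as examples of values at or near 0, for their position, as markers, or to give the members of a small count, and were chosen after their values were seen. Members and lists were chosen with earlier results of these data known. Gene positions and 50-base windows are from GENCODE M21 (GRCm38, the same assembly as mm10), which held 91 of the 93 members, and promoters from RefSeq GRCm38.p6. The calculation was checked on simulated libraries. Alternatives were pseudocounts of 0.1 and 10, no minimum and a minimum of 5 TPM, a 4-fold threshold, leaving out the highest member, and 3 scalings: median ratios over 11943 genes, rescaling after removing 24 genes among the 10 highest of any library, and equal mean log2(TPM) of 12 mature OSN markers. Python 3.11.15, pandas 2.3.3, NumPy 2.4.6, and matplotlib 3.10.9 were used. Some genes of the partner lists are counted but not reported here by name.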

Additional observations from a re-analysis of the deposited data

Results flagged for a closer look

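The following 16 results had opposite directions in the 2 lines on the deposited TPM scale. The directions stayed opposite in 11 with median-ratio scaling, in 13 with rescaling without the highest genes, and in 6 with scaling to mature OSN markers, which were *Cyp2g1*, *Cyp1a2*, *Cyp2j9*, the sums of family 1 and of *Cyp2g1* and *Cyp1a2*, and the horizontal basal cell markers. The difference was not tested in any of them, since each group has 1 library. Each value is the log2 fold change of the GFP line minus that of the tdTomato line.

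The difference was 3.60 for *Cyp2g1* and 4.69 for *Cyp1a2*. Summed over family 1, the log2 ratio was 3.12 in the GFP line and -1.68 in the tdTomato line, a difference of 4.80, and for the sum of *Cyp2g1* and *Cyp1a2* the difference was 3.75. *Cyp2j9* differed by 4.07. *Cyp4v3* and *Cyp20a1* differed the other way, by -1.14 and -1.52, and with median-ratio scaling both were higher in both lines, at 0.10 and 0.52 for *Cyp4v3* and at 0.42 and 1.22 for *Cyp20a1*. Among partner genes the differences were -2.47 for *Fdxr*, -1.74 for *Uros*, -1.42 for *Fech*, and -2.20 for *Blvra*. *Fech* was higher in both lines under each of the 3 scalings. For sums over lists they were 5.70 for Bowman gland markers (log2 ratios 5.35 and -0.35), 5.70 for horizontal basal cell markers (3.32 and -2.38), 2.43 for microvillar cell and ionocyte markers (2.32 and -0.11), -2.77 for olfactory ensheathing cell markers (-1.0 and 1.76), and -0.52 for haem synthesis genes (-0.09 and 0.43). The haem synthesis sum was higher in both lines under each of the 3 scalings. The microvillar cell and ionocyte sum was also higher in both with median-ratio scaling, at 3.20 and 0.04. The direction of the Bowman gland sum in the tdTomato line rested on *Bpifb3*, at 2337 TPM in negative and 20.6 TPM in positive cells of that line. Without this gene, an alternative chosen after seeing the data, the log2 ratios were 5.34 and 2.55.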

How the results depend on the processing

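No paired analysis was possible because the 4 groups had 1 library each, without replicate numbers to pair. Log2 values were taken as moved beyond a 1.5-fold change, and counts beyond 1.5 times. In the GFP line, the 19 P450 genes called higher became 10 with a pseudocount of 10 and 38 with scaling to mature OSN markers, which raises every value of GFP-positive cells. The 6 called lower became 2 with a pseudocount of 10, 2 with a 4-fold threshold, 2 with median-ratio scaling, and 0 with scaling to mature OSN markers. In the tdTomato line, the 15 called higher became 7 with a pseudocount of 10 and 8 with a 4-fold threshold, and the 10 called lower became 4 with a pseudocount of 10, 5 with a minimum of 5 TPM, 3 with a 4-fold threshold, and 4 with scaling to mature OSN markers. A larger pseudocount, threshold, or minimum lowers such counts by construction. The log2 ratio of summed P450 TPM in the GFP line was 3.92 with median-ratio scaling and 6.17 with scaling to mature OSN markers, and in the tdTomato line 3.10 with the latter. These scalings moved all genes by 0.88 and 3.14 in the GFP line and the latter by 0.98 in the tdTomato line. *Cyp26b1* changed direction in the GFP line with scaling to mature OSN markers, to 1.12. *Cyp2g1* and *Cyp1a2* stayed lower in tdTomato-positive cells in all alternatives computed, but at -0.57 and -0.73 with that scaling both were under 2-fold. Over all alternatives, including those with no minimum or a minimum of 5 TPM, the median log2 fold change of P450 genes ranged from 0.25 to 3.23 in the GFP line and from 0.05 to 1.14 in the tdTomato line. Unknown depth limits genes with low TPM most.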
